A study of Homo sapiens with 12 samples.

Results

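Fatty acid and triglyceride synthesis was followed through 34 genes in HepG2, a long-established cell line that was grown from a human hepatoma. The genes were picked by name for their known roles, from transcription factors of lipogenesis to the coat proteins of lipid droplets. They make up 34 of the 28256 gene symbols in the deposited counts. The choice was made with earlier results of these data known. Shares of the list set beside those of all genes are thus a description and no independent test. Each gene stands for its transcript with the highest total count over the 12 libraries. A filter on low counts left 13166 genes, among them 32 of the 34.

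RNA was sequenced from 4 groups with 3 libraries each. Every group was wild type and spent the first 24 h in medium whose serum had been stripped with charcoal. The cells then received, for 24 h, the vehicle DMSO (0.1%), dexamethasone (Dex, 50 nM), KLA (dose labelled as 100 ng/µl) or Dex and KLA together (DexKLA). Dexamethasone is a synthetic agonist of the glucocorticoid receptor, while KLA is not spelled out in the labels. They mention DMSO only for the vehicle group and do not tell whether replicates came from separate cultures. P-values thus reflect the spread among these libraries alone, which may be technical. A lower level can mean less RNA in each cell or fewer cells that hold the RNA, and the 2 cannot be told apart in bulk samples.

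Hepatocytes make fatty acids from surplus carbohydrate. Citrate is split into acetyl-CoA, carboxylated to malonyl-CoA and built into palmitate, which is then desaturated, elongated, activated with coenzyme A and joined to glycerol as triglyceride. The transcription factors encoded by SREBF1 and MLXIPL respond to insulin and to glucose and raise the transcription of many of these enzymes in the fed liver. Triglyceride is stored in droplets coated by perilipins and is released again by lipases.

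Against DMSO, the regulator gene SREBF1, the chain-building enzymes ACACA and FASN and the synthetase ACSL3 fell with Dex, with KLA and with DexKLA. They fell by 28.3% to 42.7%. These comparisons share the 3 DMSO libraries and are no independent evidence for each other. Of the 12 calls, that of ACSL3 with Dex was kept whichever library was left out, and the other 11 were lost without DMSO replicate 1. None of the 32 tested genes rose in any of these comparisons. The droplet and lipase genes PNPLA2, PNPLA3, PLIN2 and PLIN3 were not called in any of the 6 comparisons made.

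The libraries differed in ways that bear on these values. Total counts ran from 3317740 to 20933501, and every KLA library (15998657 or more) was deeper than every DMSO library (5277463 or fewer). Across genes, which are not independent replicates, a library's deviation from the gene means followed transcript length, with Spearman's rho of 0.192 to 0.395 in DMSO and −0.534 to 0.385 elsewhere. On the first principal component of all tested genes DMSO replicate 1 lay at −39.6, the other DMSO libraries at −16.9 and −15.6, and all treated libraries between −5.49 (DexKLA replicate 3) and 23.4. Hepatocyte markers were high throughout, with ALB, which encodes albumin, at 61008 to 95279 CPM (counts scaled to a common library total). The 8 listed hepatocyte genes summed to 98760 to 113511 CPM in DMSO and to 117953 to 150756 in the treated libraries. Of the markers of other cells, ADIPOQ, LEP, CIDEA and CD3E were at 0 in all 12 libraries, PTPRC had at most 1 count, COL1A1 at most 5 and COL3A1 at most 1. The 4 adipocyte markers together reached at most 1.37 CPM, while the leukocyte list (41.1 to 54.6 CPM) consisted almost wholly of CD68 and the fibroblast list (21.1 to 30.5 CPM) of PDGFRB, and the 3 endothelial markers summed to 2.88 to 5.49 CPM. The part of depth, length or other cells in the results below was not tested beyond the values given beside them. NR3C1, the glucocorticoid receptor gene, had 19.6 to 38.1 CPM, and TLR4, the lipopolysaccharide receptor gene, had 0 to 9 counts per library.

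Levels below are CPM scaled by the trimmed mean of M values (TMM). Changes are log2 fold changes ± standard error from edgeR's quasi-likelihood test, fitted to all 12 libraries, and a gene was called at a Benjamini-Hochberg adjusted p under 0.05 over the 13166 tested genes. In DMSO, where levels of different genes are compared as CPM per kilobase of transcript (mean ± SD, n = 3), SCD was the most abundant at 434 ± 56.3. PLIN2 (233 ± 49.2), ACSL4 (209 ± 24.1) and FASN (166 ± 39.7) followed and did not differ beyond their spread. FADS2 (143 ± 9.45) overlapped with FASN, and the levels of neighbours further down overlapped likewise for ACSL3 (106 ± 11.7) and ACLY (99.6 ± 5.88). ACACA, whose product feeds FASN, stood at 8.95 ± 1.46, and its isoenzyme ACACB was the lowest of the tested genes at 1.38 ± 0.135.

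**Figure D1:**
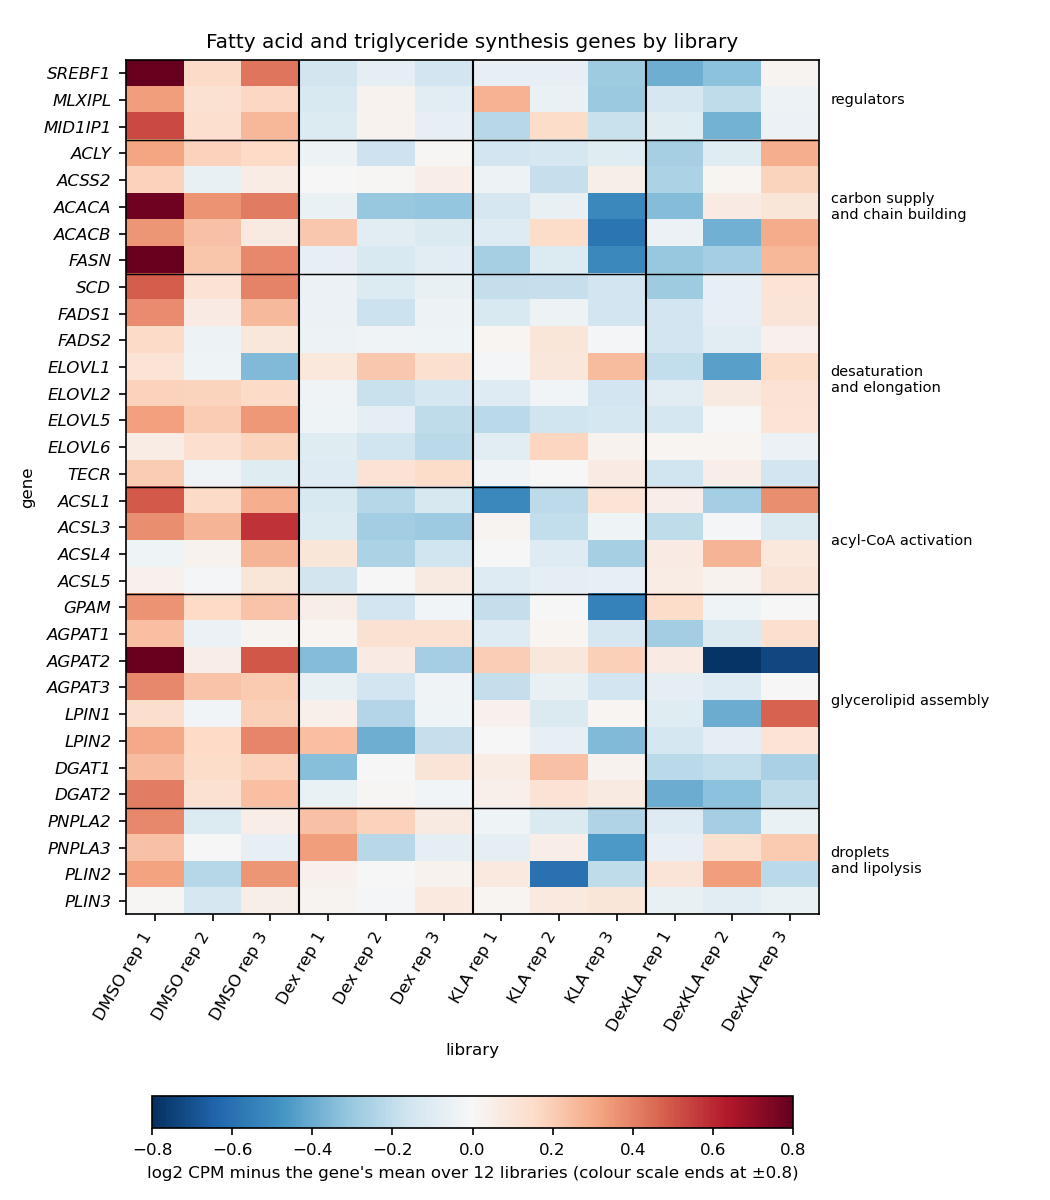
The 32 tested genes (rows, by role) in each of the 12 libraries (columns), coloured by log2 CPM minus the gene's mean over all libraries. The median deviation of the 32 genes was 0.32, 0.12 and 0.20 in DMSO replicates 1 to 3 and between −0.15 and 0.09 in the treated libraries.

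Promoters are shown for genes on which the results turn. SREBF1, ACACA and ACSL3 were called in comparisons with DMSO, and SCD was the most abundant gene. Of the 30 genes with a window, MID1IP1 and PNPLA2 were the 2 whose window held a sterol-response-like motif. FASN, also called in comparisons with DMSO, had no window to search. Each line is the 250 bases upstream of the RefSeq transcription start (GRCh38.p14), 5′ to 3′ on the gene's strand. Capitals mark 4 motifs on either strand, which can overlap. The sterol-response-like motif was TCACNCCAC. The E-box was searched as CACGTG and the CCAAT box as its name says. The GC box was GGGCGG. SREBF1 lies at chr17:17836987-17837236 (minus strand), ACACA at chr17:37406837-37407086 (minus), ACSL3 at chr2:222860786-222861035 (plus), SCD at chr10:100346983-100347232 (plus), MID1IP1 at chrX:38801209-38801458 (plus) and PNPLA2 at chr11:818664-818913 (plus).
SREBF1: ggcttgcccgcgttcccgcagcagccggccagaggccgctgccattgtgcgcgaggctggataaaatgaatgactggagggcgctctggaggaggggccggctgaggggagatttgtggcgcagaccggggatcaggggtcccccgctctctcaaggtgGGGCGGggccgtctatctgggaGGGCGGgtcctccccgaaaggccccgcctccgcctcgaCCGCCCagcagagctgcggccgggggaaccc
ACACA: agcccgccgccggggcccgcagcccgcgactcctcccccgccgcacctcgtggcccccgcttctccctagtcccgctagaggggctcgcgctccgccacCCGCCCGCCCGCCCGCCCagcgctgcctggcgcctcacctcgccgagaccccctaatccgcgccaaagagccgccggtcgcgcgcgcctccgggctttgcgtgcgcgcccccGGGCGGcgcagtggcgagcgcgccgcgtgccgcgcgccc
ACSL3: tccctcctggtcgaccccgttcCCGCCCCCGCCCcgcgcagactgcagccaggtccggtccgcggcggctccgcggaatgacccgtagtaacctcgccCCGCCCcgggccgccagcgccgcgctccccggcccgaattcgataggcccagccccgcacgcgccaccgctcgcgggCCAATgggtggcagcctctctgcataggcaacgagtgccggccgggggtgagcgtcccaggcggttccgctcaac
SCD: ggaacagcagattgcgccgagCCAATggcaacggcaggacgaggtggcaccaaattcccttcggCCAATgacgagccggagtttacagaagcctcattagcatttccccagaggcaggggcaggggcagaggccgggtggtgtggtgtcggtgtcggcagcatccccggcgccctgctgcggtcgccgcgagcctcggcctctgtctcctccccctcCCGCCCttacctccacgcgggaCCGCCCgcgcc
MID1IP1: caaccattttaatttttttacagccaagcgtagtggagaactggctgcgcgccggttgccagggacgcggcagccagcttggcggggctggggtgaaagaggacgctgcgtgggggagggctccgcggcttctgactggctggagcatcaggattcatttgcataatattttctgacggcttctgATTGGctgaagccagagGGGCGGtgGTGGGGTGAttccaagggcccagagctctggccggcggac
PNPLA2: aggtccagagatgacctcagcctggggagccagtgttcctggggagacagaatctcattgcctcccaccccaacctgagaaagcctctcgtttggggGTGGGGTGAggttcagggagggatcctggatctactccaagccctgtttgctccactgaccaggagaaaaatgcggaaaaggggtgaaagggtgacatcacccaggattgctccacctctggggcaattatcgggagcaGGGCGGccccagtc

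RefSeq windows matched 30 of the 34 genes by symbol, and 25 of these started within 100 bases of the transcript in the counts. FASN, DGAT1, DGAT2 and PNPLA3 had no window and were not searched. Over windows of 300 bases (250 before and 50 after the start), GGGCGG was present in 22 of the 25 (88.0%), against 45.0% of all 35116 promoter windows. The 25 windows were also richer in G and C, with a median of 69.0% against 58.7%. CCAAT stood in 10 of 25 (40.0%, against 34.6% of all windows), TCACNCCAC in 2 (8.0%, against 1.1%) and CACGTG in 0 (against 7.3%). Over all 30 matched windows, GGGCGG stood in 24 (80.0%), CCAAT in 13 (43.3%), TCACNCCAC in 2 (6.7%) and CACGTG in 2 (6.7%), the windows of ELOVL5 and PLIN2. In the stretches printed above, the sterol-response-like motif lay on the minus strand from −40 to −32 in MID1IP1 and from −153 to −145 in PNPLA2, counted from the start site. A match describes letters in the window and shows no binding.

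With Dex against DMSO, 5 of the 32 tested genes fell and 0 rose, beside 0.835% of all tested genes lower, 1.22% higher and 2.05% called in either direction. These were SREBF1, ACACA, FASN, ELOVL5 and ACSL3, with log2 changes from −0.75 to −0.40. By role, 1 of 3 regulators, 2 of 5 genes of carbon supply and chain building and 1 of 8 of desaturation and elongation were called lower. So were 1 of 4 of acyl-CoA activation, 0 of 8 of glycerolipid assembly and 0 of 4 of droplets and lipolysis. Glycerolipid assembly still had a median change of −0.29, with 7 of 8 below 0 (51.5% of all genes), like the −0.29 of carbon supply and chain building. Droplets and lipolysis had a median of −0.01, with 2 of 4 below 0. The median change of the 32 was −0.28, against −0.01 over all tested genes. In 17 of the 32 all 3 Dex libraries lay below all 3 DMSO libraries, which held for 13.6% of all genes, and in 0 above them (14.5%). Leaving out DMSO replicate 1 left 1 call among the 32 (ACSL3) and 66 among all genes. Without Dex replicate 2 or 3 the count was also 1, and without DMSO replicate 3 it was 2. It was 3 without Dex replicate 1 or DexKLA replicate 2, and 8 without DexKLA replicate 3. Here and in the comparisons below, such counts describe stability. Where no count over all genes stands beside one, it is no result about the 32.

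With KLA against DMSO, 11 of the 32 fell and 0 rose, beside 5.92% of all tested genes lower, 7.78% higher and 13.7% called in either direction. These were SREBF1, MID1IP1, ACACA, FASN, SCD, FADS1, ELOVL5, ACSL3, GPAM, AGPAT3 and LPIN2, with changes from −0.80 to −0.34. They made up 2 of 3 regulators, 2 of 5 genes of carbon supply and chain building and 3 of 8 of desaturation and elongation. Of acyl-CoA activation they made up 1 of 4, of glycerolipid assembly 3 of 8 and of droplets and lipolysis 0 of 4. The median change of droplets and lipolysis was −0.22, with 3 of 4 below 0 (52.3% of all genes). The median change of the 32 was −0.30, against −0.02 over all genes. All KLA libraries lay below all DMSO libraries for 15 of the 32 (18.3% of all genes) and above them for 0 (17.9%). Without DMSO replicate 1 none of the 11 calls was left, and 5 among all genes, while without DMSO replicate 3 there were 7 among the 32. Every KLA library was among the 6 deeper libraries and every DMSO library among the 6 shallower. Depth class and KLA thus coincide in this comparison, and a term for depth rests on the Dex and DexKLA libraries. With the depth class of a library as a covariate 0 of the 32 and 4 of all genes were called. The change of FASN was then −0.92 ± 0.23 and that of SREBF1 −0.78 ± 0.22.

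With DexKLA against DMSO, 8 of the 32 fell and 0 rose, beside 1.38% of all tested genes lower, 2.86% higher and 4.24% called in either direction. They were SREBF1, MID1IP1, ACACA, FASN, ACSL3, AGPAT2, DGAT1 and DGAT2, from −0.95 to −0.42. By role, 2 of 3 regulators, 2 of 5 genes of carbon supply and chain building and 0 of 8 of desaturation and elongation were called lower. So were 1 of 4 of acyl-CoA activation, 3 of 8 of glycerolipid assembly and 0 of 4 of droplets and lipolysis. Desaturation and elongation still had a median change of −0.14, with 8 of 8 below 0 (52.1% of all genes). The median change was −0.22, against −0.02 over all genes, and 14 of the 32 lay wholly below DMSO (12.8% of all genes) and 0 wholly above (13.4%). Without DMSO replicate 1 the count was 0 of the 32 and 48 of all genes. It was 1 without DexKLA replicate 1 or 2, 2 when DMSO replicate 3 was left out, 4 for Dex replicate 3 and 11 for DexKLA replicate 3, where the median change was −0.35. That library had the highest median level of the 32 genes among the treated libraries.

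**Figure D2:**
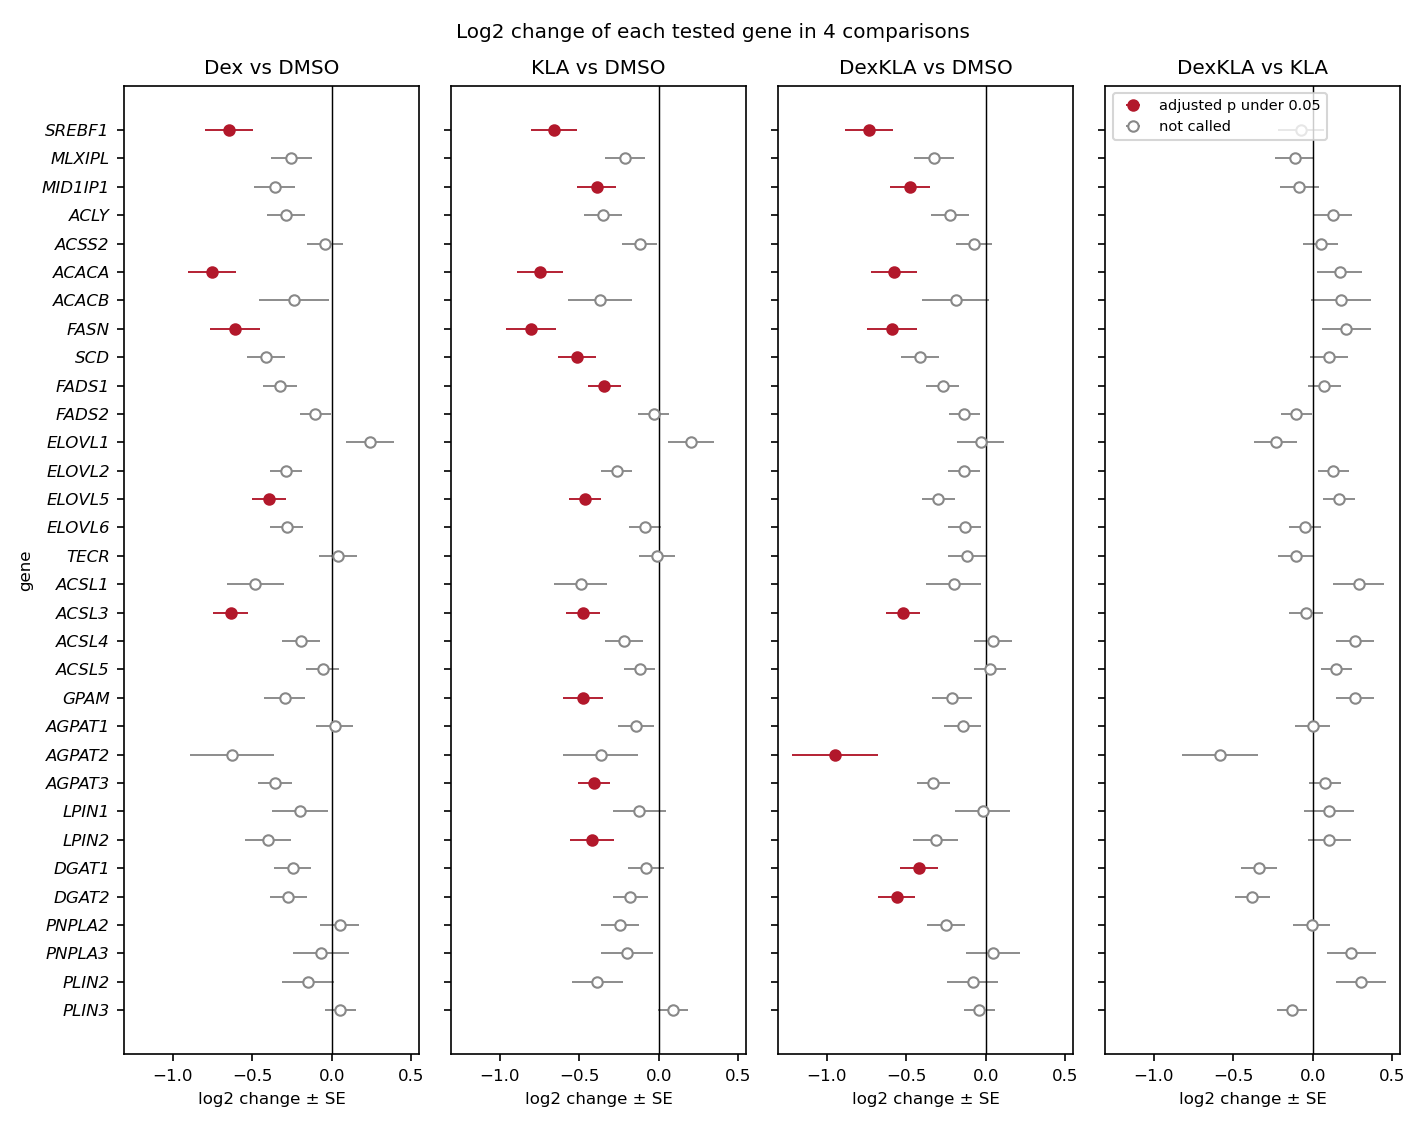
Log2 change ± SE (horizontal axis) of each tested gene (vertical axis, by role) with Dex, KLA or DexKLA against DMSO and with DexKLA against KLA. Filled points are called, 5, 11, 8 and 0 of 32 from left to right, and each filled point lies below 0.

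Among the regulators, SREBF1 (chr17:17811349-17837011, minus strand, hg38) encodes the transcription factor that switches on much of the pathway. The level and the printed promoter are those of 1 of the gene's 3 transcripts in the counts. Its level was 145, 86.0 and 104 CPM in DMSO, 69.8, 73.5 and 69.4 in Dex, 73.7, 73.8 and 63.3 in KLA and 58.9, 61.4 and 78.6 in DexKLA. Every treated library lay below every DMSO library, and DMSO replicate 1 stood well above the other 2. The log2 change was −0.64 ± 0.15 under Dex, −0.66 ± 0.15 under KLA and −0.74 ± 0.15 under DexKLA (edgeR adjusted p = 0.0278, 0.0109 and 0.0109). Without DMSO replicate 1 the changes were −0.42, −0.43 and −0.51, and none was called. With Dex the call was also lost without DMSO replicate 3 or any 1 Dex library (−0.81 to −0.42 over all libraries left out in turn), and with DexKLA without DexKLA replicate 1 or 2 (−0.90 to −0.51). The transcript shares 103 bases of its locus with RAI1 on the other strand, and no source used here gives the strand of the libraries.

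MLXIPL (chr7:73593202-73624522, minus strand), which encodes the glucose-responsive factor ChREBP, measured 92.2, 79.4 and 81.9 CPM in DMSO, 67.3, 74.7 and 69.0 in Dex, 88.6, 70.4 and 59.5 in KLA and 66.5, 63.5 and 71.1 in DexKLA. The Dex and DexKLA libraries lay below all DMSO libraries, while KLA replicate 1 lay among them. None of its changes was called, at −0.26 ± 0.13 under Dex, −0.21 ± 0.12 under KLA and −0.33 ± 0.13 under DexKLA (edgeR adjusted p = 0.267, 0.252 and 0.142). MID1IP1 (chrX:38801432-38806530, plus strand) encodes a protein that helps acetyl-CoA carboxylase to polymerise. It was present at 128, 97.5 and 107 CPM in DMSO, 82.2, 90.4 and 84.8 in Dex, 76.1, 98.1 and 78.4 in KLA and 83.1, 68.2 and 85.8 in DexKLA. KLA replicate 2 lay just above the lowest DMSO library, and all other treated libraries lay below it. The change of MID1IP1 was −0.36 ± 0.13 under Dex, −0.39 ± 0.12 under KLA and −0.47 ± 0.13 under DexKLA (edgeR adjusted p = 0.118, 0.0401 and 0.0400), a fall with KLA and with DexKLA. With length and GC trends removed both calls were lost, at −0.25 with KLA and −0.34 with DexKLA (edgeR adjusted p = 0.139 and 0.0854). Leaving out 1 library ended the KLA call without DMSO replicate 1 or 3, Dex replicate 3 or KLA replicate 1 or 3 (−0.52 to −0.28), and the DexKLA call without DMSO replicate 1 or 3, Dex replicate 3 or DexKLA replicate 1 or 2 (−0.56 to −0.36). THRSP, a lipogenic relative of MID1IP1, was too low to test, with counts of 0 in each DMSO library, 1 to 2 in the Dex, 4 to 6 in the KLA and 0 to 2 in the DexKLA libraries. A count of 0 allows up to 0.904 CPM in DMSO replicate 1 (3 counts, counting error only). Its locus lies opposite the readthrough transcript NDUFC2-KCTD14, which covers all 4491 bases of it.

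Carbon supply and chain building start with ACLY (chr17:41866917-41919022, minus strand), which splits citrate into acetyl-CoA. ACLY measured 461, 420.3 and 415 CPM in DMSO, 361, 330.2 and 372 in Dex, 332, 338 and 346 in KLA and 308, 346 and 454 in DexKLA. All Dex and KLA libraries lay below DMSO, and DexKLA replicate 3 lay within the DMSO range. Its change was −0.29 ± 0.12 under Dex, −0.35 ± 0.12 under KLA and −0.22 ± 0.12 under DexKLA (edgeR adjusted p = 0.181, 0.0522 and 0.283), not called in any. ACSS2, which makes acetyl-CoA from acetate, overlapped between all groups, with a mean of 213 ± 18.4 CPM in DMSO and 206 ± 4.01, 196 ± 15.8 and 202 ± 29.9 with Dex, KLA and DexKLA (SD, n = 3).

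ACACA (chr17:37084992-37406836, minus strand) encodes the cytosolic acetyl-CoA carboxylase, the committed step of fatty acid synthesis. The 12 libraries held 106, 79.2 and 82.4 CPM in DMSO, 59.2, 49.9 and 49.6 in Dex, 56.2, 59.2 and 43.1 in KLA and 48.4, 64.4 and 66.0 in DexKLA. No treated library reached the lowest DMSO library, and KLA replicate 3 was the lowest of all. ACACA showed changes of −0.75 ± 0.15 under Dex, −0.75 ± 0.14 under KLA and −0.58 ± 0.15 under DexKLA (edgeR adjusted p = 0.00950, 0.00808 and 0.0318). The changes without DMSO replicate 1 were −0.62, −0.61 and −0.44, none of them called. The Dex call was lost also without Dex replicate 2 or 3 (−0.84 to −0.62), and the DexKLA call without DMSO replicate 3 or DexKLA replicate 1 or 2 (−0.67 to −0.44). The transcript is annotated at 2 loci, and its reads cannot be assigned to 1 of them. The mitochondrial form ACACB was low and not called, at 12.8 ± 1.26 CPM in DMSO and 11.05 ± 1.46, 9.86 ± 2.47 and 10.8 ± 2.60 with Dex, KLA and DexKLA (SD, n = 3).

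FASN (chr17:82078338-82098236, minus strand), the synthase that builds palmitate, measured 1773, 1137 and 1275 CPM in DMSO, 933, 898 and 915 in Dex, 812, 903 and 682 in KLA and 791, 809 and 1173 in DexKLA. The Dex and KLA libraries lay below all DMSO libraries, whereas DexKLA replicate 3 lay between DMSO replicates 2 and 3. FASN fell with all treatments, with changes of −0.61 ± 0.16 under Dex, −0.80 ± 0.16 under KLA and −0.59 ± 0.16 under DexKLA (edgeR adjusted p = 0.0461, 0.00915 and 0.0399). Without DMSO replicate 1 the changes were −0.40, −0.59 and −0.38 and were not called. Further libraries whose removal ended a call were DMSO replicate 3, the 3 Dex libraries and DexKLA replicate 2 for Dex (−0.74 to −0.40), and DMSO replicate 3, Dex replicate 3 and DexKLA replicates 1 and 2 for DexKLA (−0.80 to −0.38). ME1, whose product yields NADPH for synthesis, had 0 counts in 11 of 12 libraries and 1 count in KLA replicate 3. Its upper limit was lowest in KLA replicate 2, where 0 counts allow up to 0.143 CPM.

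**Figure D3:**
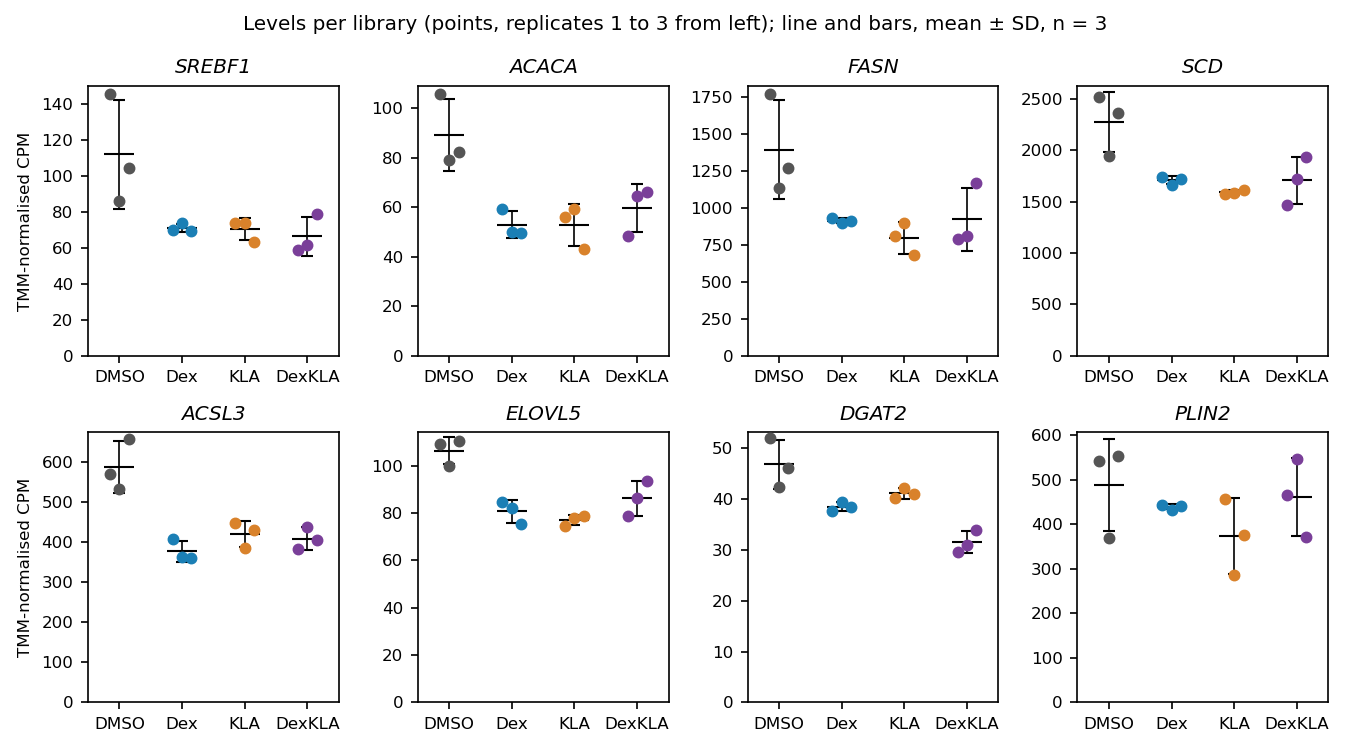
TMM-normalised CPM (vertical axes from 0) of 8 genes in every library, with replicates 1 to 3 from left to right in each group and mean ± SD over n = 3. SREBF1, ACACA, SCD, ACSL3 and ELOVL5 show each treated library below all DMSO libraries, while PLIN2 overlaps.

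In desaturation and elongation, SCD (chr10:100347233-100364826, plus strand) encodes the desaturase that makes oleate from stearate. SCD measured 2515, 1945 and 2359.8 CPM in DMSO, 1740.2, 1661 and 1721 in Dex, 1573, 1579 and 1613 in KLA and 1471, 1715 and 1933 in DexKLA. All treated libraries lay below all DMSO libraries, and DexKLA replicate 3 came closest to them. The change was −0.41 ± 0.12 under Dex, −0.52 ± 0.12 under KLA and −0.41 ± 0.12 under DexKLA (edgeR adjusted p = 0.0637, 0.0116 and 0.0502), a fall with KLA, and with DexKLA just short of the threshold. Leaving out DMSO replicate 1 gave −0.44 with KLA, and the call was lost.

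FADS1 (chr11:61799629-61817003, minus strand) encodes the delta-5 desaturase of polyunsaturated fatty acids. It stood at 330.1, 266 and 305 CPM in DMSO, 246, 225 and 247 in Dex, 234, 247 and 229 in KLA and 229, 243 and 273 in DexKLA. All Dex and KLA libraries lay below DMSO and DexKLA replicate 3 overlapped. FADS1 fell with KLA, and the 3 changes were −0.33 ± 0.11 under Dex, −0.34 ± 0.10 under KLA and −0.27 ± 0.11 under DexKLA (edgeR adjusted p = 0.0914, 0.0344 and 0.138). The KLA call was lost without DMSO replicate 1 or 3, Dex replicate 3 or KLA replicate 1 or 3 (−0.42 to −0.27), and with length and GC trends removed the change was −0.18. Its locus overlaps that of FADS2 by 600 bases on the other strand. FADS2, the delta-6 desaturase, was not called, and each treated group overlapped with DMSO, at 439.7 ± 29.1 CPM in DMSO and 409 ± 1.34, 429 ± 16.5 and 399.7 ± 27.0 with Dex, KLA and DexKLA (SD, n = 3).

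ELOVL5 (chr6:53267398-53349179, minus strand) encodes an elongase of polyunsaturated fatty acids. Its libraries held 109, 99.8 and 110.3 CPM in DMSO, 84.7, 82.2 and 75.3 in Dex, 74.6, 77.9 and 78.7 in KLA and 78.7, 86.5 and 93.6 in DexKLA. No treated library reached the DMSO range, and KLA replicate 1 and Dex replicate 3 were the lowest of all. ELOVL5 fell with Dex and with KLA, with changes of −0.40 ± 0.10 under Dex, −0.46 ± 0.10 under KLA and −0.30 ± 0.10 under DexKLA (edgeR adjusted p = 0.0493, 0.0109 and 0.0946). The Dex call was the least stable, since it was lost in 9 of 12 fits that left out 1 library (all but those without KLA replicate 3, DexKLA replicate 1 or DexKLA replicate 3; −0.44 to −0.35). With KLA the call was lost without DMSO replicate 1 (−0.45). The elongases ELOVL1, ELOVL2 and ELOVL6 and the enoyl-CoA reductase TECR were not called, with changes between −0.29 (ELOVL2 with Dex) and 0.24 (ELOVL1 with Dex) over the 3 comparisons.

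Acyl-CoA synthetases activate fatty acids, and ACSL3 (chr2:222861036-222944638, plus strand) encodes the form found at the endoplasmic reticulum and at lipid droplets. ACSL3 measured 571, 533 and 659.6 CPM in DMSO, 409, 365 and 361 in Dex, 448, 386 and 432 in KLA and 384, 439 and 407 in DexKLA. Each treated library lay well below the lowest DMSO library, and DMSO replicate 3, not replicate 1, was the highest. ACSL3 fell throughout, with changes of −0.64 ± 0.11 under Dex, −0.48 ± 0.11 under KLA and −0.52 ± 0.11 under DexKLA (edgeR adjusted p = 0.00323, 0.0111 and 0.0114). With Dex it was called in all 24 alternative settings run, at −0.66 without DMSO replicate 1. With KLA the call was lost without DMSO replicate 1 (−0.50) or 3 (−0.39), and with DexKLA without DMSO replicate 1 (−0.54) or 3 (−0.43) or DexKLA replicate 1 (−0.47).

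ACSL1, the main liver form, had 29.4 ± 3.55 CPM in DMSO and 21.1 ± 0.877, 20.7 ± 4.53 and 24.8 ± 5.54 with Dex, KLA and DexKLA (SD, n = 3) and was not called. Its change with KLA, −0.49 ± 0.17, came close (edgeR adjusted p = 0.0521). ACSL4, which prefers arachidonate, and ACSL5 were not called either. In DMSO they stood at 1078 ± 124 and 69.5 ± 2.68 CPM (SD, n = 3), and their changes lay between −0.22 and 0.05 for ACSL4 and between −0.12 and 0.03 for ACSL5.

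Glycerolipid assembly opens with GPAM (chr10:112149865-112183765, minus strand), the mitochondrial acyltransferase that adds the first fatty acid to glycerol 3-phosphate. GPAM measured 98.98, 86.2 and 90.4 CPM in DMSO, 79.7, 69.4 and 76.0 in Dex, 67.5, 77.1 and 53.0 in KLA and 85.3, 75.1 and 76.8 in DexKLA. All treated libraries lay below all DMSO libraries, and KLA replicate 3 lay far below the rest. GPAM fell with KLA, and its changes were −0.30 ± 0.13 under Dex, −0.48 ± 0.12 under KLA and −0.21 ± 0.13 under DexKLA (edgeR adjusted p = 0.191, 0.0182 and 0.340). The KLA call was lost without DMSO replicate 1 (−0.42) or KLA replicate 3 (−0.34).

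AGPAT2 (chr9:136673143-136687457, minus strand) encodes an acyltransferase that makes phosphatidic acid. It was low, at 10.7, 5.55 and 7.63 CPM in DMSO, 4.15, 5.61 and 4.39 in Dex, 6.15, 5.69 and 6.13 in KLA and 5.59, 3.01 and 3.15 in DexKLA. The values scattered by library within DMSO and within DexKLA, and DexKLA replicate 1 lay above DMSO replicate 2. The change was −0.63 ± 0.27 under Dex, −0.37 ± 0.24 under KLA and −0.95 ± 0.27 under DexKLA (edgeR adjusted p = 0.187, 0.305 and 0.0478), a fall with DexKLA. That call held in 3 of 12 fits without 1 library (−1.31 to −0.71), namely those without DMSO replicate 2, KLA replicate 3 or DexKLA replicate 1, and no 95% interval was narrow (−1.51 to −0.39 with DexKLA).

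AGPAT3 (chr21:43865223-43987590, plus strand), another acyltransferase of this family, measured 73.7, 66.3 and 65.4 CPM in DMSO, 54.3, 50.8 and 55.3 in Dex, 49.5, 54.3 and 50.7 in KLA and 53.6, 52.6 and 56.4 in DexKLA. Every treated library lay below every DMSO library. AGPAT3 fell with KLA, with changes of −0.36 ± 0.11 under Dex, −0.41 ± 0.10 under KLA and −0.33 ± 0.10 under DexKLA (edgeR adjusted p = 0.0682, 0.0158 and 0.0723). Without DMSO replicate 1 the KLA change was −0.35, and with length and GC trends removed it was −0.12, neither of them called. AGPAT1, which matches 7 annotated loci, overlapped between all groups, from 79.5 ± 11.5 CPM with DexKLA to 89.2 ± 3.87 with Dex (SD, n = 3).

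LPIN2 (chr18:2916994-3011947, minus strand) encodes a phosphatase that turns phosphatidic acid into diacylglycerol. Its level was 72.0, 65.2 and 76.7 CPM in DMSO, 68.9, 44.5 and 51.4 in Dex, 58.2, 55.8 and 45.7 in KLA and 52.9, 55.2 and 63.0 in DexKLA. KLA and DexKLA libraries lay below DMSO, while Dex replicate 1 lay within the DMSO range. LPIN2 fell with KLA, and its changes were −0.40 ± 0.14 under Dex, −0.42 ± 0.14 under KLA and −0.32 ± 0.14 under DexKLA (edgeR adjusted p = 0.121, 0.0463 and 0.203). The call held in 4 of 12 fits without 1 library (−0.49 to −0.32): those without Dex replicate 1 or 2, KLA replicate 1 or DexKLA replicate 3. With length and GC trends removed the KLA change was −0.19 and not called (edgeR adjusted p = 0.285). LOC727896 shares 3409 bases of its locus on the same strand. LPIN1 was not called and had 24.7 ± 1.87 CPM in DMSO and 21.8 ± 2.10, 22.6 ± 1.28 and 23.6 ± 7.46 with Dex, KLA and DexKLA (SD, n = 3).

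The last step, diacylglycerol to triglyceride, is made by the unrelated enzymes of DGAT1 and DGAT2. DGAT1 (chr8:144314584-144326852, minus strand) measured 64.1, 59.8 and 61.4 CPM in DMSO, 42.6, 54.2 and 58.0 in Dex, 56.3, 63.6 and 55.0 in KLA and 46.5, 47.1 and 45.0 in DexKLA. The 3 DexKLA libraries lay close together below all DMSO and all KLA libraries, and Dex replicate 1 was lower still. DGAT1 fell with DexKLA, and its changes were −0.25 ± 0.12 under Dex, −0.08 ± 0.11 under KLA and −0.42 ± 0.12 under DexKLA (edgeR adjusted p = 0.242, 0.668 and 0.0457). That call held in 3 of 12 fits without 1 library (−0.44 to −0.39), those without Dex replicate 1, KLA replicate 2 or KLA replicate 3. It was lost with length and GC trends removed (−0.30, edgeR adjusted p = 0.113). The transcript matches 2 annotated loci and shares 137 bases of its locus with HSF1 on the other strand.

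DGAT2 (chr11:75768778-75801534, plus strand) measured 52.0, 42.5 and 46.2 CPM in DMSO, 37.6, 39.4 and 38.4 in Dex, 40.2, 42.3 and 41.0 in KLA and 29.7, 31.1 and 33.9 in DexKLA. The DexKLA libraries were the 3 lowest of the 12, and the Dex and KLA libraries lay between them and DMSO. DGAT2 fell with DexKLA, and its changes were −0.27 ± 0.12 under Dex, −0.18 ± 0.11 under KLA and −0.56 ± 0.12 under DexKLA (edgeR adjusted p = 0.187, 0.273 and 0.0111). The call was lost without DMSO replicate 1 (−0.48) or DexKLA replicate 1 or 2 (−0.51 and −0.55). Against KLA the change of DGAT2 with DexKLA was −0.38 ± 0.11 and against Dex −0.29 ± 0.11, which the tests did not call (edgeR adjusted p = 0.162 and 0.695).

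At the droplets, PNPLA2 (chr11:818914-825571, plus strand) encodes the lipase that starts triglyceride breakdown. It stood at 92.2, 65.6 and 73.2 CPM in DMSO, 83.1, 80.4 and 74.2 in Dex, 69.1, 65.2 and 59.7 in KLA and 65.7, 58.4 and 68.0 in DexKLA. The groups overlapped with DMSO, whose replicate 1 was the highest library, and all DexKLA libraries lay below all Dex libraries. PNPLA2 was not called, at 0.05 ± 0.12 under Dex, −0.24 ± 0.12 under KLA and −0.25 ± 0.12 under DexKLA (edgeR adjusted p = 0.856, 0.164 and 0.238). PLIN2 (chr9:19115761-19127606, minus strand) encodes the main droplet coat protein of hepatocytes. Its libraries held 541, 369 and 553 CPM in DMSO, 443, 432 and 441 in Dex, 456, 287 and 375 in KLA and 464, 546 and 372 in DexKLA. They scattered widely within DMSO, KLA and DexKLA, and the 3 Dex libraries lay together inside the DMSO range. PLIN2 was not called, at −0.15 ± 0.16 under Dex, −0.39 ± 0.16 under KLA and −0.08 ± 0.16 under DexKLA (edgeR adjusted p = 0.641, 0.104 and 0.808). PNPLA3, a lipase relative, and PLIN3, a second coat protein, overlapped with DMSO in each comparison, with means from 18.8 ± 3.34 (KLA) to 22.2 ± 2.15 CPM (DexKLA) for PNPLA3 and from 92.8 ± 1.30 (DexKLA) to 102 ± 3.07 CPM (KLA) for PLIN3 (SD, n = 3).

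DexKLA was also compared with each agent alone. Against KLA, 0 of the 32 genes were called by edgeR's quasi-likelihood test, beside 0.653% of all genes (0.213% lower and 0.441% higher), while 5 of the 32 and 1384 of all genes (10.5%) had an unadjusted p under 0.05 and DESeq2 called 0. The 5 were ACSL4 (0.26), GPAM (0.27), AGPAT2 (−0.58), DGAT1 (−0.34) and DGAT2 (−0.38), named after their values were seen. All DexKLA libraries lay below all KLA libraries for 4 of the 32 (7.18% of all genes) and above them for 3 (8.09% of all genes). The median change was 0.07, against 0.00 over all genes. For SREBF1 the change was −0.08 ± 0.15 with a 95% interval of −0.38 to 0.23, and for FASN 0.21 ± 0.16 with an interval of −0.11 to 0.54.

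Against Dex, edgeR's test called 0 of the 32 and 0 of all tested genes (0%), as did DESeq2, and 2 of the 32 and 935 of all genes (7.1%) had an unadjusted p under 0.05. The 2 were DGAT2 (−0.29) and PNPLA2 (−0.30). DexKLA libraries lay below all Dex libraries for 3 of the 32 (6.31% of all genes) and above them for 1 (6.4%). The median change was 0.04, against 0.00 over all genes, and −0.10 without DexKLA replicate 3. The 95% interval for ACACA was −0.13 to 0.48 and for ACSL3 −0.11 to 0.34.

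Whether the change with Dex differed between cells with and without KLA was tested as an interaction. A positive value means that Dex lowered a gene less, or raised it more, in the presence of KLA. The same 3 DMSO libraries, with replicate 1 among them, enter this value. For ACACA the mean was 89.1 ± 14.5 CPM in DMSO. It was 52.9 ± 5.46, 52.8 ± 8.55 and 59.6 ± 9.75 CPM with Dex, KLA and DexKLA (SD, n = 3). EdgeR's test called 0 of the 32, beside 0.038% of all genes (0.0076% negative and 0.0304% positive), and 15 of the 32 and 2927 of all genes (22.2%) had an unadjusted p under 0.05. The median was 0.35 over the 32 and 0.02 over all genes. The smallest adjusted p values were those of ACACA (0.93 ± 0.20, edgeR adjusted p = 0.0543), ACSL3 (0.60 ± 0.15, 0.0581), ELOVL5 (0.56 ± 0.14, 0.0601) and FASN (0.82 ± 0.22, 0.0628). With length and GC trends removed the median was 0.21, and the values fell to 0.59 for ACACA, 0.40 for ACSL3 and 0.50 for FASN, while ELOVL5 was at 0.57 (edgeR adjusted p = 0.133, 0.155, 0.143 and 0.119). For DGAT2 the interaction was −0.11 ± 0.16 and for DGAT1 −0.09 ± 0.16. DESeq2 called 8 of the 32 and 705 of all genes, all 8 positive, and edgeR without a filter called 7 of the 32 and 1040 of all genes. Without Dex replicate 1, KLA replicate 2 or DexKLA replicate 1 the count was 4, 3 and 5. Over all libraries left out in turn it ran from 0 to 5. Counts over all genes in these fits are not given, so these are no result about the 32.

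Transcript length moved with these results. The 32 genes had a median length of 3734 bases, against 3130 over all tested genes, a median GC content of 54.3% against 49.8%, and a median level of 78.9 CPM against 24.7. Across the 32 genes, as a description, the Spearman rho of change against length was −0.598 with Dex, −0.570 with KLA and −0.294 with DexKLA, and across all tested genes it was −0.448, −0.467 and −0.181. For the interaction the values were 0.703 and 0.576. The longest members, ACACA, ACACB and FASN, had lengths at which the median change with Dex and with KLA over all genes was also below 0.

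**Figure D4:**
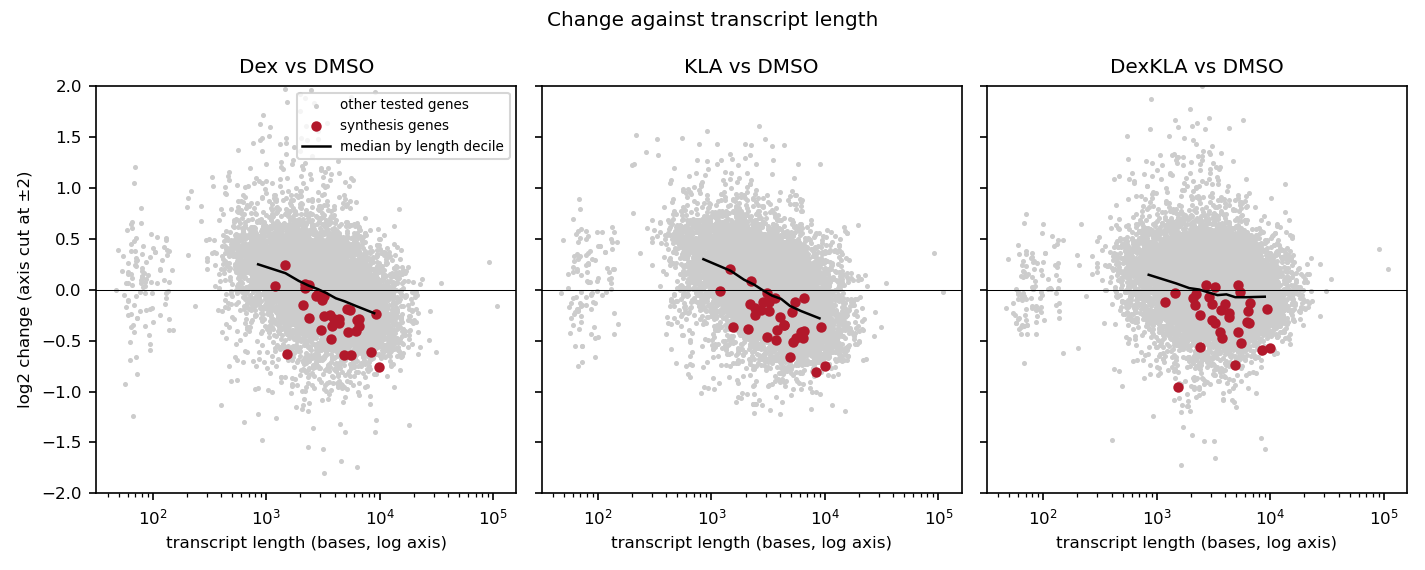
Log2 change against DMSO (vertical axis, cut at ±2) by transcript length in bases (horizontal log axis) for the 32 genes and all other tested genes, with the median of each length decile as a line. Most of the 32 lie below the line, which itself falls with length with Dex and with KLA.

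With each library's smooth trend on length and GC content removed, 4, 9 and 6 of the 32 were called with Dex, KLA and DexKLA, against 5, 11 and 8 before. The shares over all genes were then 2.06%, 6.57% and 3.13%. Calls were lost for FASN with Dex, for MID1IP1, FADS1, AGPAT3 and LPIN2 with KLA, and for MID1IP1, FASN and DGAT1 with DexKLA. Calls were gained for ELOVL2 (−0.34, edgeR adjusted p = 0.0289) and ACSL4 (−0.30, edgeR adjusted p = 0.0433) with KLA and for ELOVL5 with DexKLA. The median changes were −0.21, −0.18 and −0.17, and over all genes −0.01, −0.02 and −0.02. SREBF1 stayed at −0.54, −0.50 and −0.58, ACACA at −0.60, −0.55 and −0.56 and ACSL3 at −0.58, −0.41 and −0.58, each called. FASN was −0.40, −0.48 and −0.37, and was called with KLA alone. AGPAT3 with KLA moved from −0.41 to −0.12, and ELOVL5 with DexKLA from −0.30 to −0.44 (edgeR adjusted p = 0.0142).

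**Figure D5:**
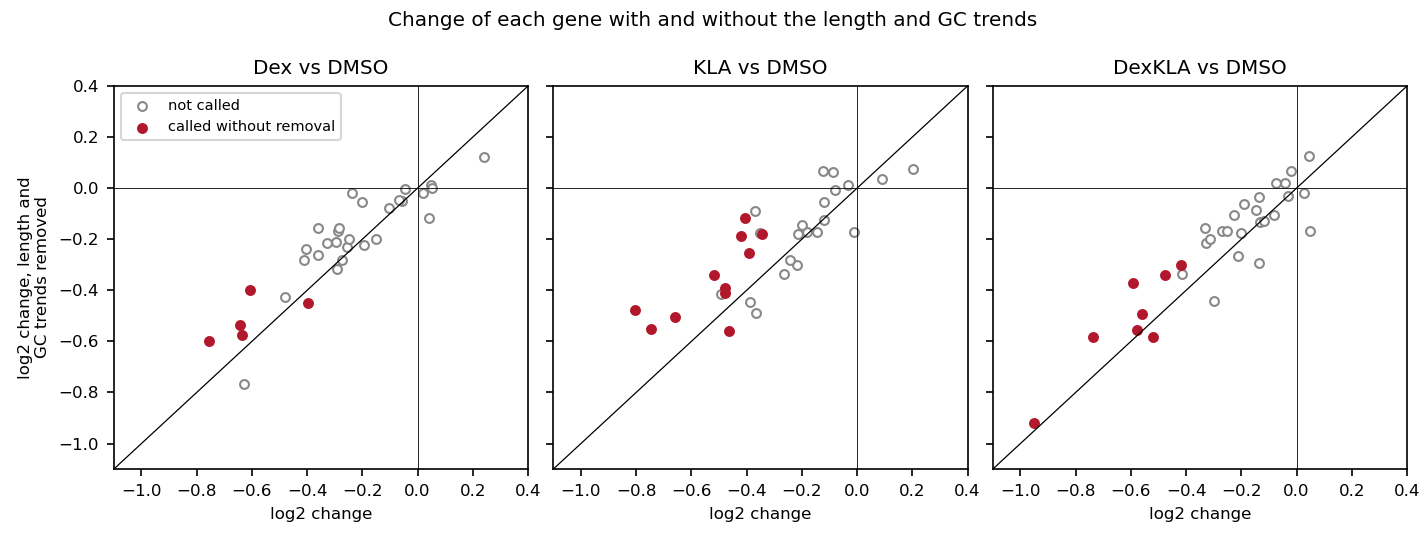
Log2 change against DMSO with (vertical axis) and without (horizontal axis) removal of length and GC trends for each of the 32 genes, with a diagonal of equal values. Filled points were called without removal, and FASN with KLA lay at −0.80 before and −0.48 after.

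Of 55 other genes of the same pathway, taken from a list that holds none of the 34, 47 could be tested. With Dex, 1 rose and 0 fell, beside the 2.05% given above. FITM1, which encodes a protein of fat droplet formation, rose by 1.24 ± 0.24 (edgeR adjusted p = 0.00938) from 3.84 ± 0.573 CPM in DMSO to 8.71 ± 2.33 with Dex (SD, n = 3). With KLA, 3 rose and 2 fell, 10.6% of the 47 beside 13.7% of all tested genes. MDH1, the cytosolic malate dehydrogenase, changed by 0.53 ± 0.11, and INSIG2, which holds the precursor of SREBP in the endoplasmic reticulum, by 0.63 ± 0.17. OXSM, which encodes an enzyme of mitochondrial fatty acid synthesis, changed by 0.56 ± 0.15. The 2 that fell were MBTPS1 (−0.44 ± 0.11), the protease that first cuts that precursor, and SOAT1 (−0.37 ± 0.12), which esterifies cholesterol. Of these 5, INSIG2 alone stayed called with length and GC trends removed (0.46). MDH1 was then at 0.24, OXSM at 0.30 and MBTPS1 at −0.28. Over the 47, 3 were called with the trends removed, 1 each of the regulators, of carbon and NADPH supply and of chain building. The share over all genes is that given above for trend removal. With DexKLA, 4 rose and 0 fell: FITM1 (1.17 ± 0.24), MDH1 (0.46 ± 0.11), OXSM (0.54 ± 0.15) and ACSL6 (0.95 ± 0.27). They made up 8.51% of the 47, beside 4.24% of all genes, and with the trends removed only FITM1 (1.15) stayed called, with MDH1 at 0.25, OXSM at 0.33 and ACSL6 at 0.90. The median change of the 47 was 0.03 with Dex, 0.00 with KLA and 0.01 with DexKLA. In the other 3 comparisons edgeR called 0 of the 47. An unadjusted p under 0.05 was found for 3 of the 47 (against KLA), 1 (against Dex) and 4 (interaction). Over all tested genes this held for 10.5%, 7.1% and 22.2%. With the trends removed, 1 of the 47 was called with DexKLA against KLA. It was FITM1, at 0.69 before and 0.86 after removal (edgeR adjusted p = 0.0103).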

How the data were processed

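RNA from 12 HepG2 libraries was measured by sequencing. Per the submitters' processing notes, the genome was hg38 and the tools were BWA 0.7.17, HOMER 4.10 and Trimmomatic, with no role for each. No source used here says how the values were made. The deposited values per RefSeq transcript came in steps of 0.5 and were taken to be expected counts, which were rounded to whole numbers. Per the labels' protocols a DNA library kit was used, and the strand was not given. Of 70507 transcripts, 406 without a symbol (1.71% to 2.55% of a library's counts) were left out.

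The transcript with the highest total was kept per symbol. Genes were filtered with filterByExpr (minimum count 10), scaled with TMM and tested with edgeR 4.0.16 in R 4.3.3, with 1 mean per group over 12 libraries (8 residual degrees of freedom) and Benjamini-Hochberg adjustment over 13166 genes. The steps were tested on simulated data. The data.table package was version 1.17.8. Intervals are at 95%. GC values covered 98.2% of the tested genes and all 32 members tested. Promoter windows came from RefSeq.

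The members, the other pathway genes and the markers were chosen with earlier results of these data known. Per-library values are given for every member called in at least 1 comparison and for 11 members that the rule lists by name, and other pathway genes are named where called. Alternatives were the size factors or the Wald test of DESeq2 1.42.0, library size alone, no filter, at least 50 reads in 3 libraries, a replicate block with and without removal of length and GC trends (loess span 0.3), that removal alone, the longest transcript, the 6 libraries of a comparison, a depth class covariate, thinning to 3317740 counts and leaving out each library. No 2 replicates were copies: the lowest chi-square per degree of freedom between replicates was 1.87.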

Additional observations from a re-analysis of the deposited data

How the results depend on the processing

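Counts of genes called among the 32 depended on the setting. Counts over all genes moved as well, as given above for some settings. The counts below stand without a share over all genes and are no result about the 32. With Dex against DMSO, where 5 were called, library size alone gave 8, DESeq2's test 8, the 6 libraries compared 12, the depth class covariate 3 and thinning 2, and leaving out 1 library gave 1 to 8. With KLA, where 11 were called, trend removal with the block gave 7, the depth class covariate 0 and thinning 7, and leaving out 1 library 0 to 13. With DexKLA, where 8 were called, the covariate gave 2, thinning 1, and leaving out 1 library 0 to 11. For the interaction, with 0 called, library size alone gave 4, DESeq2's test 8 and no filter 7, and leaving out 1 library 0 to 5. Thinning uses fewer reads, and leaving out a library uses fewer samples. The cause of the differences between settings was not tested. DexKLA against KLA and against Dex gave 0 of the 32 in every setting run. Of the log2 changes of called genes under the alternatives, 418 of their values kept direction and call, 158 kept direction and lost the call, and 0 turned direction.

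With the replicate number as a block, 2 (Dex), 9 (KLA) and 4 (DexKLA) were called, again given without a share over all genes. The numbers did not pair the libraries: correlations of same-numbered deviations ran from −0.310 to 0.172, with 1 of 18 pairs over 0.1, and 0 of 12 libraries correlated best with its own number. DMSO libraries were the shallowest group on average, and the part of this in the precision of the 3 comparisons with DMSO was not tested.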
